A study of Arabidopsis thaliana with 6 samples.

Results

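Transcripts of the nuclear genes for the photosystems and their light-harvesting antennae were followed in Arabidopsis thaliana seedlings that were heated in darkness. The genes were chosen by locus and comprised the LHCA and LHCB antenna proteins, the nuclear PSA and PSB subunits, the Rubisco small subunit gene RBCS1A and Rubisco activase (RCA). All 41 loci were found on the array. They were read by 37 of the 22746 probe sets tested, a probe set being a group of short oligonucleotides that report on one transcript. Of these probe sets, 31 matched a single locus and 6 were shared. One was shared by LHCB1.1, LHCB1.2 and LHCB1.3, one by LHCB1.4 and LHCB1.5, one by LHCB2.1 and LHCB2.2, and these sets are neighbouring genes. The probe set of LHCA2 also matches AT5G28450, that of PSBR also matches RPL24A, and that of RBCS1A also matches RBCS1B, RBCS2B and RBCS3B, so in none of these can the loci be told apart.

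The heat group was 3 samples of Col-0 seedlings kept at 37 °C for 30 min in darkness, and the control group was 3 samples of Col-0 seedlings in darkness without heat. Col-0 is a widely used laboratory accession. Before that, both groups had 72 h of cold at 4 °C as seeds in darkness and then grew on solid MS medium at 23 °C, in days of 16 h light and 8 h dark. The design text gives an age of 10 days, whereas the sample labels give 19, 20 and 21 days for heat replicates 1 to 3 and 16, 17 and 18 days for control replicates 1 to 3, so the labelled age runs with the groups. These labels count up without a break from one sample to the next, and which age is right is not known here. Samples of the design kept in light were not analysed here. The time of day and the length of the dark period are not known here either. RNA came from seedlings as a bulk, in which fewer green cells and less transcript per green cell cannot be told apart.

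Photosynthesis in the chloroplast starts at a pair of pigment-protein complexes. Photosystem II takes electrons from water and photosystem I passes them to ferredoxin, and each is fed by antenna proteins that bind chlorophyll, LHCB proteins for photosystem II and LHCA proteins for photosystem I. The core of each photosystem is encoded in the chloroplast, while the antenna proteins and many peripheral subunits are encoded in the nucleus and imported. These nuclear genes are known for strong dependence on light, the clock and chloroplast signals, and photosystem II is known as a heat-sensitive part of photosynthesis.

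The signals are log2 values, and signals of different probe sets do not rank transcripts by abundance. The 5 heat genes used as a check were all higher after heat (limma adjusted p from 6.08e-07 to 1.23e-05). HSP101, a disaggregase needed for thermotolerance, differed by 8.19 (SE 0.23), HSFA2, a heat shock factor, by 7.64 (SE 0.27), HSP90.1, a cytosolic chaperone, by 7.21 (SE 0.33), MBF1C, a transcriptional coactivator, by 7.37 (SE 0.32) and APX2, an ascorbate peroxidase, by 6.03 (SE 0.23). All control signals of APX2 (1.49, 1.81 and 1.49) lay below the medians of their arrays, as did some of HSFA2, HSP101 and HSP90.1. Those control signals were not shown to be above background. Control replicate 2 stood apart. Its Pearson correlations with the other controls over all probe sets were 0.976 and 0.978, against 0.988 between those controls and 0.989 to 0.991 among heat arrays. It was the highest control array for 23 of the 37 probe sets, against 37.8% of all probe sets, and each result that rests on it is given with and without it. As it was set apart partly by values of these same probe sets, adjusted p-values without it are not independent of that choice. The summed signal of root markers differed between arrays. The summed linear signal of the 10 measured root markers of 11 listed was 96.5 to 186 on heat arrays and 142 to 378 on control arrays, where control replicate 2 had the lowest sum. Bright markers such as PHT1;1 and CASP1 (7.19 and 6.73 on control replicate 1) weigh most in these sums. Among the controls, replicate 2 was not the lowest for COBL9, EXPA7 and EXPA18, and it was the lowest for the other measured root markers. For PRP3 replicates 2 and 1 read 2.340 and 2.345, and for HKT1 and IRT1 replicate 2 read 2.01 and 2.82. These signals, and all control signals of COBL9 and EXPA7, lay below the medians of their arrays. They were not shown to be above background. The endodermis factor SCR was the only root marker called, and it fell by 1.09 (SE 0.18, limma adjusted p = 0.013). Of the other markers in that list none passed, WOX5 had no probe set, and none was listed at 0. Of 7 shoot markers outside photosynthesis none passed (0 called by limma, 1 at an unadjusted p under 0.05), with sums of 243 to 311 on heat arrays and 292 to 409 on control arrays, highest on control replicate 2. KCS10, the brightest shoot marker, weighs most in the shoot sums, and control replicate 2 was not the highest control for ATML1 and LFY. The part of root and shoot share in the results below was not tested.

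No photosystem or antenna gene passed the test for a difference between heat and control. Of the 37 probe sets, 0 were called higher and 0 lower at a limma adjusted p under 0.05, against 2.34% higher and 4% lower among all probe sets. At an unadjusted p under 0.05, 6 were higher (LHCA4, LHCB2.1/LHCB2.2, LHCB2.3, LHCB4.2, LHCB6 and PSAD2) and 0 lower, against 6.48% higher and 14.9% lower among all. In signal the 37 probe sets were bright, with a median at the 99.6th percentile of all probe sets. The median difference, heat minus control, was 0.05 over these probe sets and -0.01 over all probe sets. Its sign depended on the scaling, since it became -0.03 after quantile normalization, 0.16 after median centring and 0.21 after cyclic loess. Centring moved the median of all probe sets by 0.11. Set against the median of all probe sets, the photosystem median stood at 0.06, at -0.015 after quantile normalization and at 0.20 after cyclic loess. It stood at 0.20 when only probe sets at or above the median signal were kept, whose own median was -0.15. The 14 antenna probe sets had a median difference of 0.41, with 10 above 0, and the 21 PSA and PSB probe sets one of 0.05, with 14 above 0, against 48.3% above 0 among all probe sets. Whether these medians differ was not tested. The differences ran from -0.21 (LHCB5) to 0.93 (LHCB2.1/LHCB2.2). For 33 of 37 the 95% interval of the difference, unadjusted, lay within 1 on the log2 scale either way, that is within a 2-fold change, against 86.4% of all probe sets. The exceptions were LHCB2.1/LHCB2.2, LHCB2.3, LHCB3 and PSAD2, whose intervals reached 1.63, 1.49, 1.32 and 1.02.

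**Figure D1:**
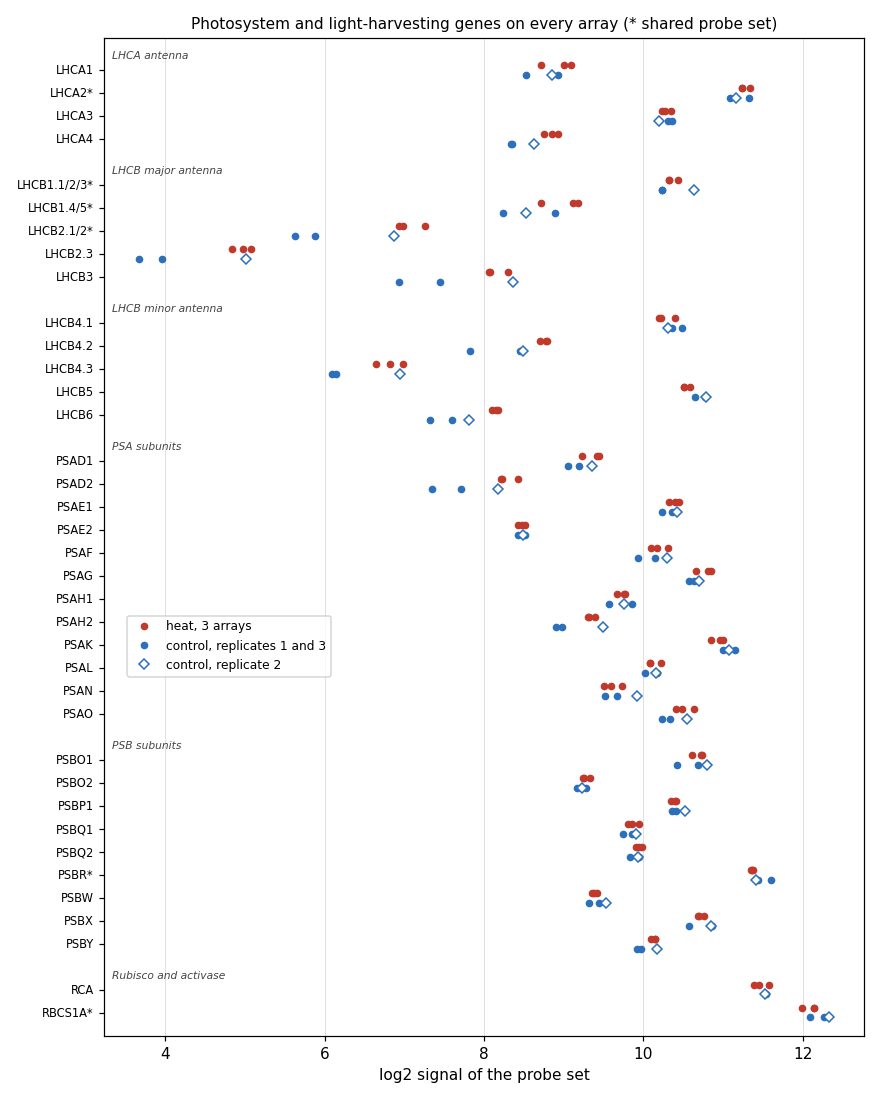
Log2 signal of each probe set on every array, by complex, with heat arrays above control arrays and control replicate 2 as an open diamond. In most rows the groups overlap, while LHCB2.1/LHCB2.2, LHCB2.3, LHCB3, LHCB4.3 and PSAD2 have control replicates 1 and 3 well below the heat arrays and control replicate 2 close to them.

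The major antenna of photosystem II, the trimers of LHCB1, LHCB2 and LHCB3 that hold most of the chlorophyll b of the leaf, showed the widest spread. LHCB2.1/LHCB2.2 (AT2G05100 and AT2G05070), whose protein takes part in state transitions, read 7.26, 6.93 and 6.99 on heat replicates 1 to 3, against 5.88, 6.87 and 5.63 on control replicates 1 to 3. All heat arrays lay above all control arrays, but control replicate 2 lay only just below them. The difference was 0.93 (SE 0.30, limma adjusted p = 0.124), and it was 1.304 (SE 0.15, limma adjusted p = 0.00179) without control replicate 2. LHCB2.3 (AT3G27690), the third LHCB2 gene and the dimmest probe set of the group at the 74th percentile of all probe sets, read 5.08, 4.84 and 4.98 on heat arrays, against 3.96, 5.02 and 3.67 on control arrays. Control replicate 2 lay inside the heat range and the other controls lay below it. The LHCB2.3 difference was 0.75 (SE 0.32, limma adjusted p = 0.227), and 1.15 (SE 0.14, limma adjusted p = 0.00244) without control replicate 2. Without control replicate 3, the lowest array for each, the difference was 0.69 for LHCB2.1/LHCB2.2 and 0.48 for LHCB2.3 (limma adjusted p = 0.308 and 0.516).

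LHCB3 (AT5G54270), which sits in the trimers that link the antenna to the core, had a similar layout of arrays. It read 8.30, 8.07 and 8.08 on heat arrays, against 7.44, 8.36 and 6.94 on control arrays. Control replicate 2 was above every heat array and the other controls were below every one. The LHCB3 difference was 0.57 (SE 0.32, limma adjusted p = 0.363), and 0.96 (SE 0.17, limma adjusted p = 0.0111) without control replicate 2, but 0.245 (limma adjusted p = 0.74) without control replicate 3. The LHCB1 genes, which code for the most abundant antenna protein, gave 2 probe sets with unlike values. LHCB1.1/LHCB1.2/LHCB1.3 (AT1G29920, AT1G29910 and AT1G29930) read 10.43, 10.32 and 10.32 on heat arrays, against 10.24, 10.63 and 10.24 on control arrays. Its groups overlapped, with the highest value on control replicate 2, and the difference was -0.0098 (SE 0.14, limma adjusted p = 0.975), a sign that turned in other fits. LHCB1.4/LHCB1.5 (AT2G34430 and AT2G34420) averaged 9.003 ± 0.26 in heat and 8.55 ± 0.33 in control (SD, n = 3 each), a difference of 0.45 (limma adjusted p = 0.248) that ran from 0.29 without control replicate 3 to 0.62 without control replicate 1. Of the 5 major-antenna probe sets, 4 had a difference above 0, with a median of 0.57.

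The minor antenna proteins LHCB4 (CP29), LHCB5 (CP26) and LHCB6 (CP24) sit as monomers between the trimers and the core. LHCB6 (AT1G15820) had the lowest adjusted p of the 37 probe sets. It read 8.16, 8.17 and 8.10 on heat arrays, against 7.60, 7.82 and 7.33 on control arrays. The heat arrays lay close together and above every control array. The LHCB6 difference was 0.56 (SE 0.14, limma adjusted p = 0.062), and it passed without control replicate 2 (0.68, SE 0.13, limma adjusted p = 0.0124), after median centring (0.67, adjusted p = 0.0485), after cyclic loess (0.70, adjusted p = 0.0426) and with a trend in the moderation (0.56, adjusted p = 0.0474). It did not pass after quantile normalization (0.54, adjusted p = 0.0897). Nor did it pass with the replicate block, with labelled age, or without any other single array. LHCB5 (AT4G10340) read 10.58, 10.51 and 10.51 on heat arrays, against 10.77, 10.79 and 10.65 on control arrays. All its heat arrays lay below all its control arrays, and the difference of -0.21 (SE 0.10) did not pass (limma adjusted p = 0.299). It was -0.30 after quantile normalization, -0.095 after median centring and -0.045 after cyclic loess. Whether LHCB5 and LHCB6 differ in their response was not tested.

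The LHCB4 genes gave 3 patterns. LHCB4.1 (AT5G01530) read 10.39, 10.19 and 10.22 on heat arrays, against 10.49, 10.30 and 10.35 on control arrays, which overlap, and its difference was -0.11 (SE 0.11, limma adjusted p = 0.605). LHCB4.2 (AT3G08940) read 8.78, 8.71 and 8.79 on heat arrays, against 8.46, 8.49 and 7.82 on control arrays. Its groups did not overlap, control replicate 3 was far below the rest, and the difference was 0.50 (SE 0.18, limma adjusted p = 0.171), or 0.29 (limma adjusted p = 0.297) without that array. LHCB4.3 (AT2G40100), a gene also known as LHCB8, read 6.82, 6.98 and 6.64 on heat arrays, against 6.15, 6.95 and 6.09 on control arrays. Control replicate 2 lay inside the heat range. The LHCB4.3 difference was 0.42 (SE 0.23, limma adjusted p = 0.354), and 0.70 (SE 0.13, limma adjusted p = 0.0141) without control replicate 2, but 0.27 (limma adjusted p = 0.69) without control replicate 3. Over the 5 minor-antenna probe sets the median difference was 0.42, with 3 above 0 and 2 below.

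LHCA1 to LHCA4 form the belt of antenna proteins on one side of photosystem I. LHCA4 (AT3G47470), a partner of LHCA1 that carries low-energy chlorophylls, read 8.93, 8.75 and 8.85 on heat arrays, against 8.33, 8.63 and 8.35 on control arrays. The groups did not overlap, and the highest control was replicate 2. The LHCA4 difference was 0.40 (SE 0.13, limma adjusted p = 0.112). It passed only without control replicate 2 (0.50, SE 0.12, limma adjusted p = 0.0272) and after cyclic loess (0.55, adjusted p = 0.046). LHCA3 (AT1G61520) read 10.34, 10.27 and 10.24 on heat arrays, against 10.31, 10.20 and 10.36 on control arrays. Its groups overlapped fully, and the difference was -0.0051 (SE 0.10, limma adjusted p = 0.983). LHCA1 and LHCA2 differed by 0.17 (SE 0.16) and 0.08 (SE 0.11), neither passing (limma adjusted p = 0.579 and 0.71).

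**Figure D2:**
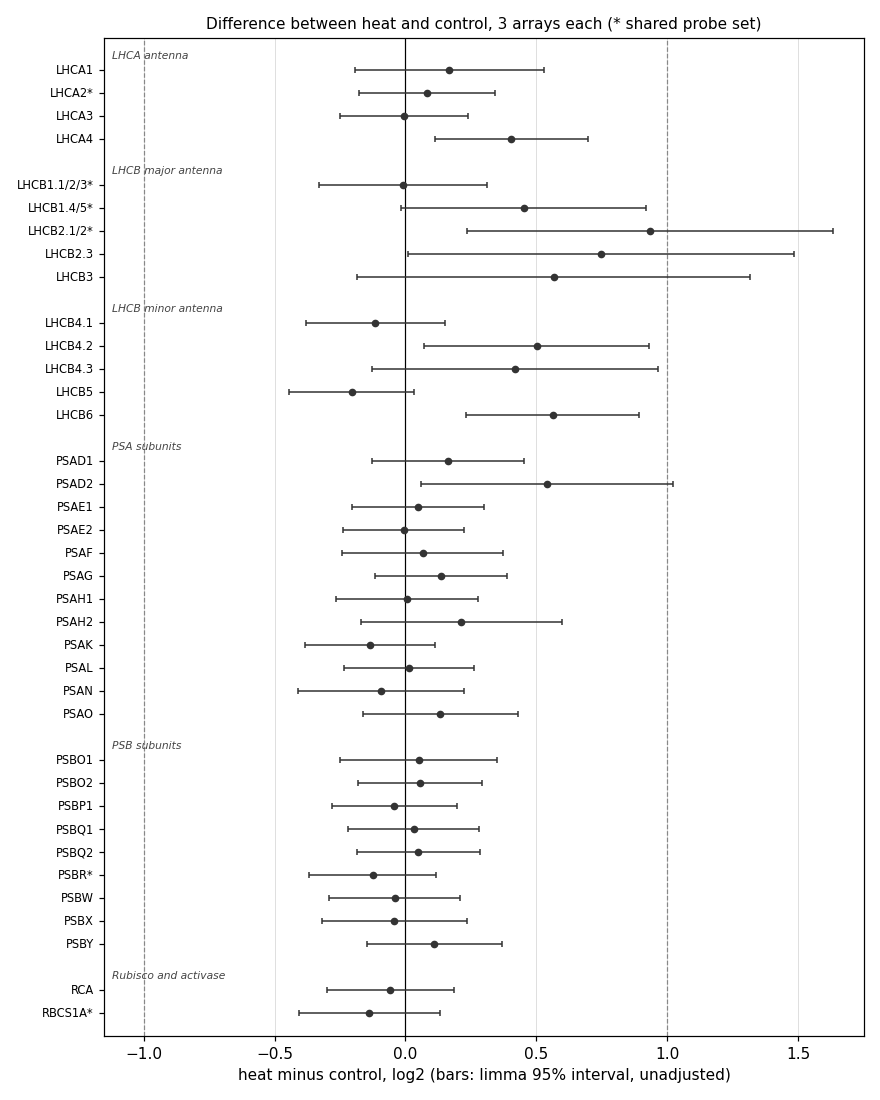
Heat minus control on the log2 scale for each probe set (points), with limma's unadjusted 95% interval (bars) from 3 heat and 3 control arrays; dashed lines mark a 2-fold change. The intervals of LHCB2.1/LHCB2.2, LHCB2.3, LHCB3 and PSAD2 reach past the upper line, and the other 33 lie inside both.

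None of the nuclear photosystem I subunits passed. PSAD and PSAE line the stromal side where ferredoxin docks, PSAF and PSAN the lumenal side where plastocyanin docks, and PSAG, PSAH, PSAK, PSAL and PSAO lie at the edges where antenna proteins attach. Of the 12 probe sets, 9 had a difference above 0 and the median was 0.06, with 11 of 12 intervals within a 2-fold change. PSAD2 (AT1G03130) had the largest difference. It read 8.21, 8.23 and 8.43 on heat arrays, against 7.72, 8.18 and 7.34 on control arrays. The groups did not overlap, with control replicate 2 close under the heat arrays. The PSAD2 difference was 0.54 (SE 0.21, limma adjusted p = 0.185), and 0.76 (SE 0.15, limma adjusted p = 0.0157) without control replicate 2, but 0.34 (limma adjusted p = 0.415) without control replicate 3. PSAE2 (AT2G20260) had the smallest difference, with 8.47, 8.43 and 8.51 on heat arrays, against 8.42, 8.49 and 8.51 on control arrays. Its groups were interleaved, and its interval ran from -0.24 to 0.23. The other 10 lay between -0.13 (PSAK) and 0.21 (PSAH2), with limma adjusted p from 0.505 to 0.982. PSAH2 averaged 9.34 ± 0.04 in heat and 9.12 ± 0.32 in control (SD, n = 3 each), and it reached 0.40 (limma adjusted p = 0.0507) without control replicate 2. PSAD1, PSAG, PSAO, PSAF, PSAE1, PSAL and PSAH1 had differences of 0.16, 0.14, 0.13, 0.07, 0.05, 0.01 and 0.0063, and PSAN of -0.09.

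The nuclear photosystem II subunits kept to a narrow range, from -0.13 (PSBR) to 0.11 (PSBY), and all 9 intervals lay within a 2-fold change. PSBO, PSBP and PSBQ shield the manganese cluster that splits water, PSBR helps to attach them, and PSBW, PSBX and PSBY are small membrane subunits. PSBR (AT1G79040) read 11.37, 11.35 and 11.37 on heat arrays, against 11.44, 11.42 and 11.60 on control arrays. The heat arrays lay below all control arrays, and the difference of -0.13 (SE 0.10) did not pass (limma adjusted p = 0.537). PSBQ1 (AT4G21280) read 9.85, 9.94 and 9.81 on heat arrays, against 9.86, 9.91 and 9.74 on control arrays, which overlap. Its interval ran from -0.22 to 0.28. PSBO1 averaged 10.69 ± 0.07 in heat and 10.64 ± 0.19 in control, and PSBP1 10.39 ± 0.03 in heat and 10.43 ± 0.08 in control (SD, n = 3 each). The differences of PSBO1, PSBO2 and PSBQ2 were each 0.05 to 0.06, and those of PSBP1, PSBW and PSBX each -0.04. The median over the 9 was 0.03. Limma adjusted p ran from 0.537 to 0.893.

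Of the carbon-fixing pair, RCA (AT2G39730), the heat-sensitive chaperone that reopens inhibited Rubisco sites, read 11.58, 11.39 and 11.45 on heat arrays, against 11.53, 11.53 and 11.53 on control arrays. The controls lay together, inside the heat range, and the difference was -0.06 (SE 0.10, limma adjusted p = 0.783). RBCS1A (AT1G67090), whose shared probe set had the highest mean signal of all 22746, read 12.14, 11.99 and 12.14 on heat arrays, against 12.27, 12.33 and 12.08 on control arrays. Only control replicate 3 fell within the heat range, and the difference was -0.14 (SE 0.12, limma adjusted p = 0.536). Another 3 dimmer shared probe sets name RBCS1A in the annotation, with differences of -0.57, -0.09 and 0.11 and limma adjusted p from 0.0589 to 0.848. The first read 3.27, 2.89 and 2.96 on heat arrays, against 3.46, 3.62 and 3.75 on control arrays. The second read 2.19, 2.19 and 2.27 on heat arrays, below the medians of those arrays, so these signals were not shown to be above background. No saturation call was used here, so whether probe sets this bright report a change at its full size was not tested.

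Of the single arrays, control replicate 2 was the one whose omission changed the calls. The SD over control arrays was larger than over heat arrays for 34 of the 37 probe sets, against 62.1% of all probe sets, with a median SD of 0.07 in heat and 0.15 in control. Without control replicate 2, 7 of 37 were called higher and 0 lower, against 4.43% higher and 12% lower among all probe sets. These were LHCB2.1/LHCB2.2, LHCB2.3, LHCB3, PSAD2, LHCB4.3, LHCB6 and LHCA4, that is 6 antenna probe sets and 1 photosystem I subunit. They were also dim for the group, from the 74th (LHCB2.3) to the 98.2th percentile (LHCA4) of all probe sets. The bright antenna probe sets of LHCA2, LHCA3, LHCB1.1/LHCB1.2/LHCB1.3, LHCB4.1 and LHCB5 (percentile 99.76 or above) were not called. Every PSB probe set stood at 99.04 or above. PSAE2 and LHCB4.2, at 97.9 and 98.0, were not called either. Whether the calls follow complex or signal level was not tested. Without control replicate 2 the median difference was 0.96 for the major LHCB antenna, 0.62 for the minor one, 0.14 for LHCA, 0.12 for PSA and 0.06 for PSB. No PSB gene, RCA or RBCS1A passed there, and LHCB1.1/LHCB1.2/LHCB1.3 turned to 0.12. Leaving out any other array gave 0 calls among the 37. For 14 of 37 probe sets both control replicates 1 and 3 lay below every heat array, against 22.7% of all probe sets, and for 2 of 37 both lay above every heat array, against 28.8% of all. For 28 of 37, control replicate 2 lay at or above the lowest heat array, against 73.5% of all. The root marker sums, though not every root marker, went with this only in part. Control replicates 1 and 3, low for LHCB2 and LHCB3, had the largest root sums of all arrays (378 and 236), and control replicate 2 (142) lay inside the range of the heat arrays. Between control replicates 1 and 3 the order was unlike that of the root sums. Replicate 3 read lower than replicate 1 for LHCB2.1/LHCB2.2, LHCB2.3 and LHCB3, yet it had the smaller root sum. The part of root share in the result was not tested.

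**Figure D3:**
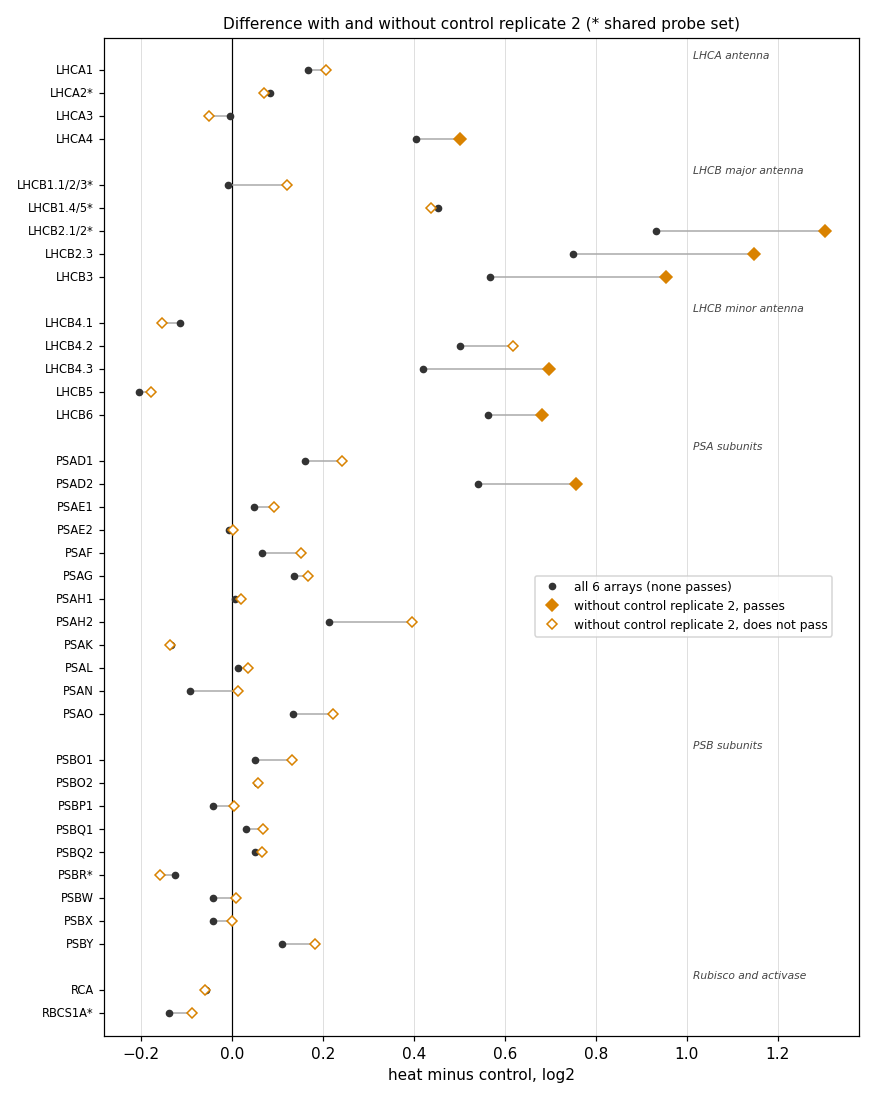
Heat minus control on the log2 scale with all 6 arrays (points) and without control replicate 2 (diamonds, filled where the limma adjusted p is under 0.05). The 7 filled diamonds are LHCA4, LHCB2.1/LHCB2.2, LHCB2.3, LHCB3, LHCB4.3, LHCB6 and PSAD2, while the PSB row block stays within 0.2 of 0.

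Groups that did not overlap were found for 5 probe sets with all heat arrays higher (LHCA4, LHCB2.1/LHCB2.2, LHCB4.2, LHCB6 and PSAD2) and for 2 with all heat arrays lower (LHCB5 and PSBR). Among all probe sets the shares were 10.4% and 15.8%, so the first count was near the background share and the second below it. Quantile normalization gave 4 higher and 5 lower, against 11.1% and 15% of all probe sets. Median centring gave 10 and 0, against 20.4% and 10.6%, and cyclic loess gave 20 and 0, against 12.6% and 13%.

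Several subunits are coded by gene pairs, and 9 such pairs, picked after their values were seen, were compared by the difference between their heat effects within arrays. LHCB4.2 minus LHCB4.1 shifted by 0.62, and every heat array lay above every control array (exact permutation p = 0.1, two-sided). LHCB2.3 minus LHCB2.1/LHCB2.2 shifted by -0.18, with the arrays again separate (exact permutation p = 0.1). With 3 arrays against 3 the smallest possible p is 0.1, so this test could not pass 0.05, and after Benjamini-Hochberg adjustment over the 9 pairs both stood at 0.36. The shift was 0.53 for LHCB4.3 against LHCB4.1 (exact permutation p = 0.3) and 0.46 for LHCB1.4/LHCB1.5 against LHCB1.1/LHCB1.2/LHCB1.3 (exact permutation p = 0.2). For PSAD2 against PSAD1 the shift was 0.38 (exact permutation p = 0.2), and for PSAH2 against PSAH1 it was 0.21 (exact permutation p = 0.4). The PSBO pair (shift 0.0047), the PSBQ pair (0.02) and the PSAE pair (-0.05) moved least.

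Other nuclear photosynthesis genes, taken from 8 lists of 67 loci, set these values in context. Apart from the RBCS probe set already described, they were read by 64 probe sets, of which 3 rose and 1 fell, with a median difference of -0.06. Among all probe sets the shares were 2.34% higher and 4% lower, and the same shares apply to each list below. In the list of rare antenna proteins and antenna relatives 2 of 12 rose and 0 fell. Both were early light-inducible proteins, which bind pigments under stress. ELIP1 read 7.81, 8.26 and 8.07 on heat arrays, against 2.298, 2.46 and 2.56 on control arrays. The control signals lay below the medians of their arrays, so they were not shown to be above background. The difference was 5.61 (SE 0.15, limma adjusted p = 3.8e-07). ELIP2 read 5.41, 5.70 and 5.44 on heat arrays, against 3.78, 4.35 and 3.48 on control arrays, and differed by 1.64 (SE 0.22, limma adjusted p = 0.00501). Of 10 genes of electron transport and ATP synthase 1 rose and 0 fell. It was FD1, a minor leaf ferredoxin, with 10.37, 10.44 and 10.32 on heat arrays, against 9.41, 9.90 and 9.60 on control arrays. Its difference was 0.73 (SE 0.14, limma adjusted p = 0.0253), and leaving out either of control replicates 1 and 3, or any heat array, ended the call (adjusted p from 0.0726 to 0.103).

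Among 14 Calvin cycle genes 1 fell and 0 rose, against 4% and 2.34% of all probe sets. Their median was -0.18, near the -0.15 of all probe sets at or above the median signal, and it was -0.074 after median centring. GAPA2, a subunit of the chloroplast glyceraldehyde-3-phosphate dehydrogenase, read 10.01, 9.84 and 9.99 on heat arrays, against 10.42, 10.53 and 10.40 on control arrays. Its difference was -0.51 (SE 0.11, limma adjusted p = 0.0352), and the same 5 omissions ended its call (adjusted p from 0.0892 to 0.125), as did median centring (-0.39, adjusted p = 0.112) and cyclic loess (-0.35, adjusted p = 0.0936). With the labelled age as a covariate, ELIP1 was the only one of the 4 still called. That covariate runs with the groups, and the median SE of the 37 photosystem probe sets was 0.26 with it, against 0.12 in the main fit. A call lost in that fit therefore cannot show an effect of age. In the lists of other photosystem proteins (8 probe sets), antenna insertion (4), kinases and photosystem II repair (8) and regulators (8) limma called 0. At an unadjusted p under 0.05 the counts were, in the same order, 1 lower, none, 3 higher and 3 lower, against 6.48% higher and 14.9% lower among all probe sets. Their members with the largest differences were PSB29 (-0.41, limma adjusted p = 0.0884), needed for thylakoid formation, CPSRP43 (0.19, adjusted p = 0.593), which escorts antenna proteins to the thylakoid, STN8 (0.34, adjusted p = 0.113), a kinase of the photosystem II core, and the GATA factor GNC (-0.85, adjusted p = 0.0585), which promotes greening. GNC passed without control replicate 1 (-1.05, adjusted p = 0.0259), without control replicate 2 (-0.87, adjusted p = 0.0454) and with a trend in the moderation (adjusted p = 0.044), but not after median centring (-0.74, adjusted p = 0.0768). Its heat signals (2.29, 2.47 and 2.29) lay below the medians of their arrays, so they were not shown to be above background. Without control replicate 2, 4 of the 64 probe sets were called higher and 2 lower, against 4.43% and 12% of all probe sets. The regulator GLK1 was among the higher ones (0.49, limma adjusted p = 0.028), against 0.32 (adjusted p = 0.317) with all arrays. For GLK1, control replicate 2 (4.19) lay inside the heat range and the other controls (3.69 and 3.65) lay below it.

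**Figure D4:**
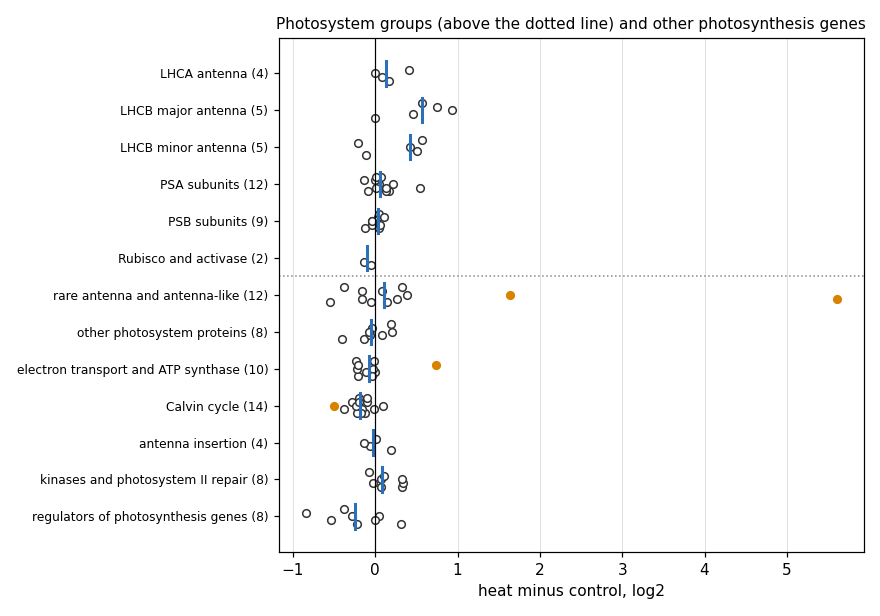
Heat minus control on the log2 scale for every probe set of the photosystem groups (above the dotted line) and of the other photosynthesis lists, with the number of probe sets in brackets; filled points have a limma adjusted p under 0.05 and bars mark medians. The filled points are ELIP1 at 5.61, ELIP2 at 1.64, FD1 at 0.73 and GAPA2 at -0.51, and no photosystem point is filled.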

How the data were processed

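Total RNA of 6 samples was labelled and hybridized to Affymetrix arrays. The deposited values are log2 signals per probe set, made by the authors with RMA per the submitters' processing notes; software, version and settings are not stated. A second deposited table gave the authors' linear ratio of each heat array over the control array of the same number, which equalled the log2 differences to within a relative gap of 6.26e-05, and its annotation named the probe sets through Entrez Gene, matched to the TAIR10.1 gene table. Arrays carry no read depth, precision is limited by having 3 a group, and no detection calls were used. The brightest single-locus probe set was used per locus, otherwise the brightest shared one, and 64 control probe sets were left out. limma 3.58.1 under R 4.3.3 fitted heat minus control (two-sided moderated test, adjusted by Benjamini-Hochberg across 22746 probe sets, threshold 0.05), a step also tested on simulated data. SE and 95% interval are limma's. The labels do not say whether replicates were grown separately, so the p-values reflect a spread that may be technical. Same-numbered heat and control arrays did not deviate together (correlations -0.26, -0.24 and -0.24), so no pairing by number was used in the main fit. Such correlations cannot show whether same-numbered samples were grown or processed together.

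The alternatives were 3 scalings, a filter on dim probe sets, a trend in the moderation, the replicate number as a block, the labelled age as a covariate, each array left out, and the mean over single-locus probe sets. Members and lists were chosen with earlier results of these data known. Array values are given for members past the threshold, for the largest and smallest absolute difference in each complex, for the brightest and dimmest probe set, and for LHCB3, LHCB4.2, LHCB4.3 and LHCB5, added after their values were seen. From each other list up to 2 rises and 2 falls are named, or else the largest difference. A planned comparison of protein and promoter sequences was not run, as no sequence table was used here.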

Additional observations from a re-analysis of the deposited data

How the results depend on the processing

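Over 14 other fits, 17 of the 37 photosystem differences never changed sign and 20 did at least once. The largest of these 20 was 0.14 in size with all arrays. The filter on dim probe sets, the trend in the moderation, the replicate block and the averaging leave each difference as it was. No sign could turn in those fits, so they add nothing to this count. No setting called a photosystem gene lower. Median centring gave 1 photosystem gene higher, 0 other photosynthesis genes lower, and 10 higher and 0 lower without overlap, and it turned LHCA3 to 0.11, LHCB1.1/LHCB1.2/LHCB1.3 to 0.10, PSAE2 to 0.10, PSAN to 0.017, PSBP1 to 0.068, PSBW to 0.069, PSBX to 0.067 and RCA to 0.052. Quantile normalization gave 2 other photosynthesis genes lower and 5 photosystem genes lower without overlap, and turned PSAE1 to -0.068, PSAF to -0.058, PSAH1 to -0.11, PSAL to -0.11, PSBO1 to -0.035, PSBQ1 to -0.093, PSBQ2 to -0.060, PSBY to -0.027 and RCA to 0.034. Cyclic loess gave 2 photosystem genes higher, 5 other genes higher and 0 lower, and 20 higher and 0 lower without overlap, and turned LHCA3 to 0.15, LHCB1.1/LHCB1.2/LHCB1.3 to 0.15, LHCB4.1 to 0.042, PSAE2 to 0.13, PSAK to 0.032, PSAN to 0.055, PSBP1 to 0.12, PSBR to 0.048, PSBW to 0.10, PSBX to 0.12, RCA to 0.12 and RBCS1A to 0.049. Among all probe sets, 533 were higher and 909 lower, against 671 and 679 after median centring and 713 and 688 after cyclic loess. A trend in the moderation gave 1 photosystem gene higher and 3 other genes lower. The cause of these shifts was not tested.

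With the replicate number as a block (replicate block), which the arrays' deviations do not bear out as a pairing, 410 probe sets and 0 other photosynthesis genes were lower, 0 photosystem genes were called, and FD1 (adjusted p = 0.0643) and GAPA2 (0.139) lost their calls. No heat array correlated best with the control of its number. Labelled age as a covariate, which runs with the groups, left 129 probe sets higher and 10 lower, 1 other photosynthesis gene higher and 0 lower, and turned LHCA3 to 0.039, LHCB1.1/LHCB1.2/LHCB1.3 to 0.073, LHCB4.1 to 0.12, PSAE1 to -0.14, PSBO1 to -0.15, RCA to 0.039 and CPSRP43 to -0.061. No photosystem locus had several single-locus probe sets, so averaging them changed nothing, and the filter on dim probe sets changed no call among the 37.

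Leaving out 1 array at a time gave 371 to 1008 probe sets higher and 275 to 2719 lower, 0 to 7 photosystem genes higher, 0 to 2 other photosynthesis genes lower, and 5 to 14 photosystem genes higher and 2 to 4 lower without overlap. Over the same omissions, 13.1% to 22.7% of all probe sets were higher and 18.2% to 28.8% lower without overlap. The upper ends of the 3 higher counts came without control replicate 2. Differences that turned sign ran from -0.051 to 0.029 for LHCA3, from -0.076 to 0.12 for LHCB1.1/LHCB1.2/LHCB1.3, from -0.0047 to 0.092 for PSAE1, from -0.033 to 0.014 for PSAE2, from -0.033 to 0.15 for PSAF, from -0.075 to 0.074 for PSAH1, from -0.033 to 0.038 for PSAL, from -0.18 to 0.013 for PSAN, from -0.056 to 0.13 for PSBO1, from -0.075 to 0.0034 for PSBP1, from -0.019 to 0.068 for PSBQ1, from -0.10 to 0.0090 for PSBW and from -0.14 to 0.0078 for PSBX. With 3 arrays a group, and labelled age running with the groups and no detection calls used, differences of this size were not resolved here.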
